A study of Homo sapiens with 6 samples.

Results

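The regions described here are the GSX2-bound intervals nearest to 8 transcription factor genes of the dorsal lateral ganglionic eminence (LGE) and caudal ganglionic eminence (CGE): SP8, SP9, TSHZ1, TSHZ2, TSHZ3, ETV1, PROX1 and SALL3. An interval was assigned to a gene when the summit of its strongest peak had that gene as the nearest protein-coding span in RefSeq on hg38, and intervals of the 3 replicates that overlapped by at least 1 bp were merged. The rule found 33 of 15743 merged regions, made of 20, 17 and 21 peaks in replicates 1, 2 and 3. The rule used the position of the summits, and fold enrichment only to pick the strongest summit of an interval or merged region. It set no limit on the number of replicates with a peak or on the fold enrichment.

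The data are chromatin immunoprecipitation and sequencing of GSX2 in H9, an established human embryonic stem cell line, differentiated toward LGE-like progenitors. The cells carried wild-type GSX2 with a 2xFLAG tag behind TRE3G, a doxycycline-inducible promoter, and received doxycycline at 100 ng/mL for 12 hours from day 10. Chromatin was taken at day 10.5 and precipitated with the M2 antibody against FLAG, in 3 replicates of 1 group. The input libraries from the same induced cells have no values here, and no uninduced or untagged cells were analysed, so there is no contrast between conditions and the values describe occupancy by an induced, tagged protein, not by the endogenous one. The labels number the replicates without saying whether each is a separate culture, and the spread between them may be technical. Peak lists hold no expression values, so the labelled cell state could not be checked against markers, and no read counts, so depth is unknown.

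The ganglionic eminences are the embryonic sources of forebrain inhibitory neurons. Progenitors at the dorsal edge of the LGE give rise mainly to interneurons of the olfactory bulb, and the CGE to a large class of cortical interneurons. SP8 and SP9 are related zinc finger factors of dorsal LGE progenitors and young olfactory interneurons. TSHZ1, TSHZ2 and TSHZ3 are teashirt-family zinc finger factors, of which TSHZ1 acts in the maturation of olfactory interneurons and TSHZ3 in striatal and cortical neurons. ETV1 is an ETS-domain factor of the dorsal LGE lineage, PROX1 a homeodomain-related factor required in CGE-derived interneurons, and SALL3 a spalt-family zinc finger factor of olfactory interneurons. GSX2 itself is a homeodomain factor of LGE progenitors, expressed most strongly at their dorsal edge. Homeodomains of its class bind short A/T-rich cores such as TAATTA.

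The RefSeq promoter table (GRCh38.p14, windows from 250 bases before to 50 after a transcription start) lists 11 windows for 5 of the 8 genes, and 3 of these windows overlapped a GSX2 region. They are shown because they are the places where a peak and a listed start of these genes coincide. No window is listed for SP9, TSHZ1 or PROX1. Capitals mark the words TAATTA and CAATTA on either strand. Each line runs 5′ to 3′ on the minus strand, on which both genes are transcribed.
ETV1, start inside the gene, chr7:13986363-13986662: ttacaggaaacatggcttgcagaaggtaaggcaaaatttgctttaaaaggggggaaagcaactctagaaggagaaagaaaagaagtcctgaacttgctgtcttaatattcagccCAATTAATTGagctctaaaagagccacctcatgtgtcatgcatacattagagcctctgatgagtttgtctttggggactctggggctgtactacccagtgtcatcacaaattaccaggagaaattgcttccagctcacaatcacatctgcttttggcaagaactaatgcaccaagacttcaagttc
ETV1, start near the outer end, chr7:13989617-13989916: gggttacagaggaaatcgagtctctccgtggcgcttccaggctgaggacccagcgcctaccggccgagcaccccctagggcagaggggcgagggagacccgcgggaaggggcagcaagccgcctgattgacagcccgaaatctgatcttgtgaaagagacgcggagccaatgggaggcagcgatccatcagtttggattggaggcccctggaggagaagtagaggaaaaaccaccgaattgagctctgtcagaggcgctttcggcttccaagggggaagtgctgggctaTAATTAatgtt
SP8, its listed start, chr7:20786837-20787136: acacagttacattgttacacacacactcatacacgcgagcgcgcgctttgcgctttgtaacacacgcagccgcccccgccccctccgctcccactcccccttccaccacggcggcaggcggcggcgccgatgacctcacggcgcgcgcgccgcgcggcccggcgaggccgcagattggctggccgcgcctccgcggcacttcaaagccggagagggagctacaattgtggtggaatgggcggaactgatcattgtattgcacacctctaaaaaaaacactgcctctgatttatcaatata

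The inner ETV1 window shared 184 bases with a region of replicates 1 and 3. It held 2 CAATTA words that overlap each other as CAATTAATTG. The summit of replicate 3 (position 13986542) lay within these words, and that of replicate 1 (position 13986772) was 224 bp from them, beyond the printed window. The outer ETV1 window shared 61 bases with a region of replicate 1, whose summit was 110 bp from the TAATTA at bases 290 to 295 of the window. The SP8 window shared 67 bases with a region of replicate 3 and held neither word. Of all 35116 listed promoter windows, 3.12% overlapped a region of any replicate and 0.618% a region of all 3 replicates. TAATTA occurred on either strand in 4.84% of all windows and CAATTA in 7.38%, and 11.4% held at least 1 of the 2. Among the 1096 windows that overlap a region of any replicate, as the 3 printed windows do, 24.4% held at least 1, with a median GC content of 59.7% against 58.7% over all windows. Among the 217 windows that overlap a region of all 3 replicates, which include none of the 3, the share was 32.7% and the median GC content 57.0%. Among the windows of the 8 genes, the 2 printed ETV1 windows held a word and the other 9 held none. The shorter core TAAT, which TAATTA contains, was in 7 of the 11 windows and in 50.2% of all windows. A pair of TAATTA or CAATTA words with 7 bases between them was in 0 of the 11 windows and in 0.0199% of all windows. A match in a window is a description of its letters, and no genome sequence was used for regions outside these windows.

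Recurrent regions, those with a peak in all 3 replicates, were found at 5 of the 8 genes: SP8, SP9, TSHZ2, ETV1 and PROX1. Over all genes, 12.5% of 19974 protein-coding genes were nearest to such a region and 33.1% to a region of any replicate. The 8 genes have long territories, meaning the sequence closer to that gene than to any other, with a median of 557 kb against 56.4 kb over all genes, so these 2 shares do not compare like with like. TSHZ3 and SALL3 had regions of 1 or 2 replicates only, and TSHZ1 had none. Of the 33 regions, 8 held a peak of all 3 replicates (24.2%, 95% Wilson interval 12.8 to 41.0%), against 22.5% of all merged regions. Another 9 were seen in 2 replicates and 16 in 1 (48.5%, against 54.9% of all regions). In share of recurrent regions the 8 genes were therefore close to the background.

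Recurrent binding at these genes was of moderate strength except at SP8. Fold enrichment is the authors' own linear ratio of signal at the peak over the caller's background. The median over the 8 recurrent regions was 8.79, against 9.49 over all 3537 recurrent regions, and 1 of the 8, the strongest at SP8, was above that median. Regions of 2 replicates had a median of 6.09 (7.18 over all regions of 2), and those of 1 replicate 5.78 (6.21 over all regions of 1). Of the 16 regions seen once, 14 were below 7.34, the lowest mean of a recurrent region at the 8 genes. That region, at ETV1, measured from 5.35 to 9.92 in single replicates, so the ranges overlap. Over all regions, recurrent means went down to 4.52 and regions seen once reached 16.7. At a minimum −log10 q of 10 in each replicate, recurrent regions remained at SP8 and SP9 only, 1 at each gene. The share of all 3537 recurrent regions that pass this threshold was not computed, so whether this loss is usual is unknown.

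**Figure D1:**
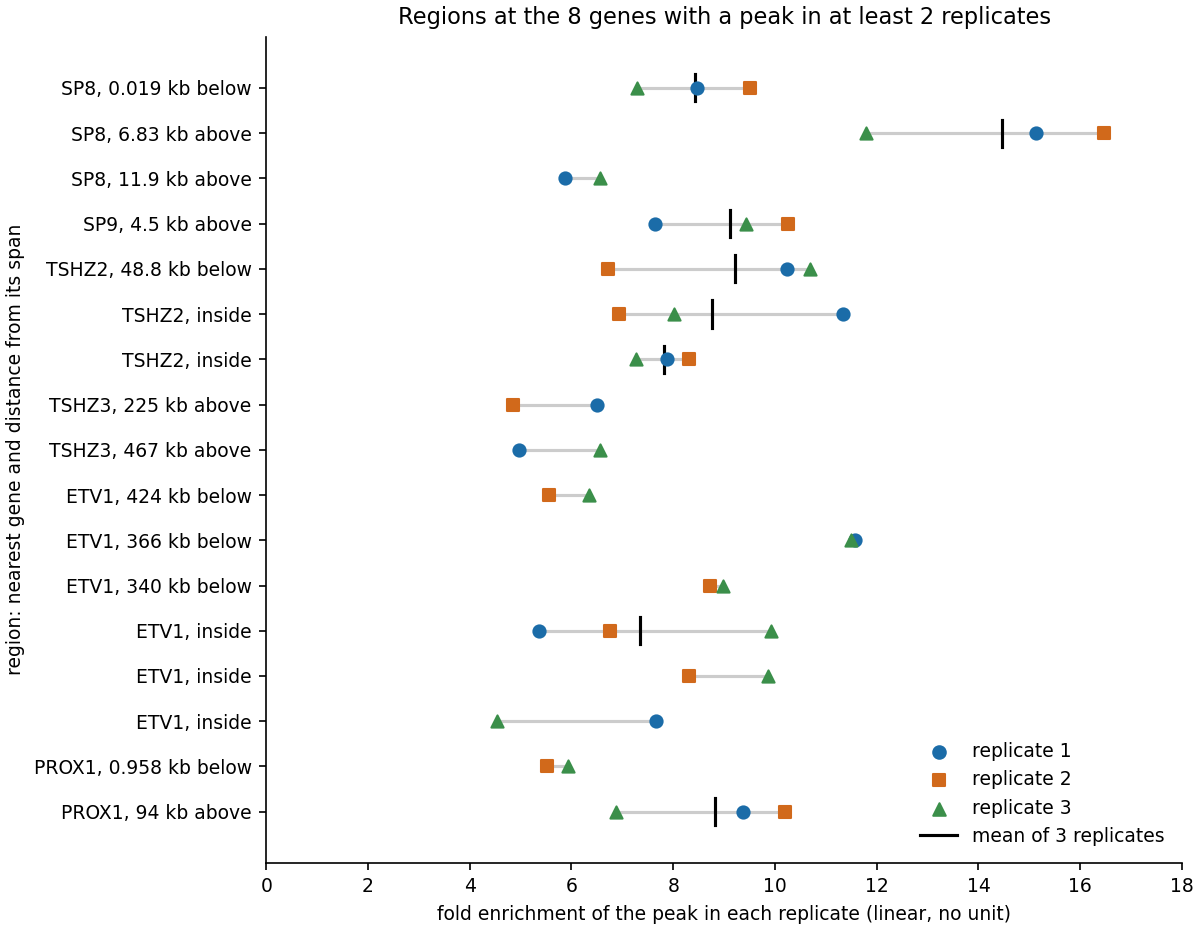
Fold enrichment (x axis, linear, no unit) in each replicate of the 17 regions at the 8 genes with a peak in at least 2 replicates; labels give the nearest gene and the distance of the summit below (lower coordinate) or above its span, and black bars are means of 3 replicates. All 3 values of the SP8 region at 6.83 kb, from 11.8 to 16.5, lie to the right of every other point.

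SP8 had 8 regions, of which 2 recurred in all 3 replicates. The strongest was on chromosome 7 from 20793152 to 20794038, 6.83 kb from the end of the gene that holds its listed start, that is upstream of it. Its fold enrichment was 15.1 in replicate 1, 16.5 in replicate 2 and 11.8 in replicate 3, averaging 14.5 ± 2.4 (SD, n = 3). It stood above 94.8%, 95.6% and 86.8% of the peaks of its replicate, and was number 483 of the 3537 recurrent regions. Its lowest value, 11.8, was above the highest of the other 55 peaks at the 8 genes, 11.6. The summits of the 3 replicates fell within 32 bp, and each replicate's peak had 2 summits. Of all 33 regions, 4 had several summits in some replicate (12.1%), against 3.79% of all regions.

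The second recurrent SP8 region sat across the other end of the gene, where transcription ends, on chromosome 7 from 20782114 to 20782548, with its median summit 19 bp outside the span. It measured 8.47, 9.50 and 7.29 in replicates 1, 2 and 3, averaging 8.42 ± 1.11 (SD, n = 3), and its range did not overlap that of the upstream region. Between and beyond these lay a region over the listed start in replicate 3 only (7.86-fold, shown above by its window) and a region 11.9 kb upstream in replicates 1 and 3 (5.87 and 6.57). Thus 4 of the 8 regions had their summits between 0.019 kb below and 16.5 kb above the lower end of this gene, which is 4.61 kb long. The other 4, 178 to 255 kb upstream, were each seen in 1 replicate at 5.51 to 6.19-fold, and 2 of them lay in the long noncoding gene LINC01162. The gap above SP8 runs 641 kb to its family relative SP4, which had 1 recurrent region in the same gap, 258 kb from SP4 (chromosome 7, 21169449 to 21170386, 8.27 ± 1.11-fold, SD, n = 3).

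SP9, the closest relative of SP8 among the 8 genes, also carried recurrent binding a few kilobases outside the gene. The region on chromosome 2 from 174342652 to 174343218 lay 4.50 kb from the span and measured 7.64, 10.2 and 9.44 in replicates 1, 2 and 3, averaging 9.11 ± 1.33 (SD, n = 3). Its 3 summits fell within 12 bp. A weaker region 0.362 kb from the span was in replicate 3 only (5.56-fold). SP9 has a territory of 51.5 kb, the smallest of the 8, because CIRSR begins 9.52 kb above it. The recurrent region lies in this gap, 4.50 kb above SP9 and almost as near to CIRSR, so its assignment to SP9 is narrow. The 3 values of this region were all below the 3 values of the strongest SP8 region.

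TSHZ2 had 3 recurrent regions, the most of the 8 genes, spread over a gene span of 523 kb and the sequence before it. The region before the gene, 48.8 kb upstream of the first listed start (chromosome 20, 52922986 to 52923705), measured 10.2, 6.72 and 10.7 in replicates 1, 2 and 3, averaging 9.21 ± 2.17 (SD, n = 3). A region inside the gene, between the 2 listed starts and 43.9 kb before the inner start (53141248 to 53141498), measured 11.3, 6.93 and 8.01, a mean of 8.76 ± 2.30 (SD, n = 3). Replicate 2 was the lowest at both. The third, 7.06 kb before the far end and within the antisense gene TSHZ2-AS1 (53488106 to 53488424), measured 7.88, 8.30 and 7.28, a mean of 7.82 ± 0.52 (SD, n = 3), with summits within 3 bp. The ranges of the 3 regions overlap, so they have no resolved order. The other 3 TSHZ2 regions were each seen in 1 replicate, at 4.76 to 6.78-fold. No summit was closer to either listed start than those named.

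The paralogs TSHZ1 and TSHZ3 showed no recurrent region. TSHZ3 had 2 regions of 2 replicates, both upstream of its listed start. The region 225 kb away measured 6.49 in replicate 1 and 4.84 in replicate 2, and the region 467 kb away 4.96 in replicate 1 and 6.56 in replicate 3. A region inside the gene was in replicate 1 only (5.85-fold). The closest recurrent region to TSHZ3 was 500 kb away, nearest to ZNF536 (14.6 ± 3.5-fold, SD, n = 3). TSHZ1 (chromosome 18, 75210797 to 75289944) was not nearest to any peak of any replicate. At the average density of regions its territory of 140 kb would hold 0.727 regions, fewer than 1. The closest region of any kind was 166 kb from TSHZ1, in 1 replicate (4.39-fold), and the closest recurrent region was 1207 kb away. A missing peak means only that no peak passed the authors' threshold.

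**Figure D2:**
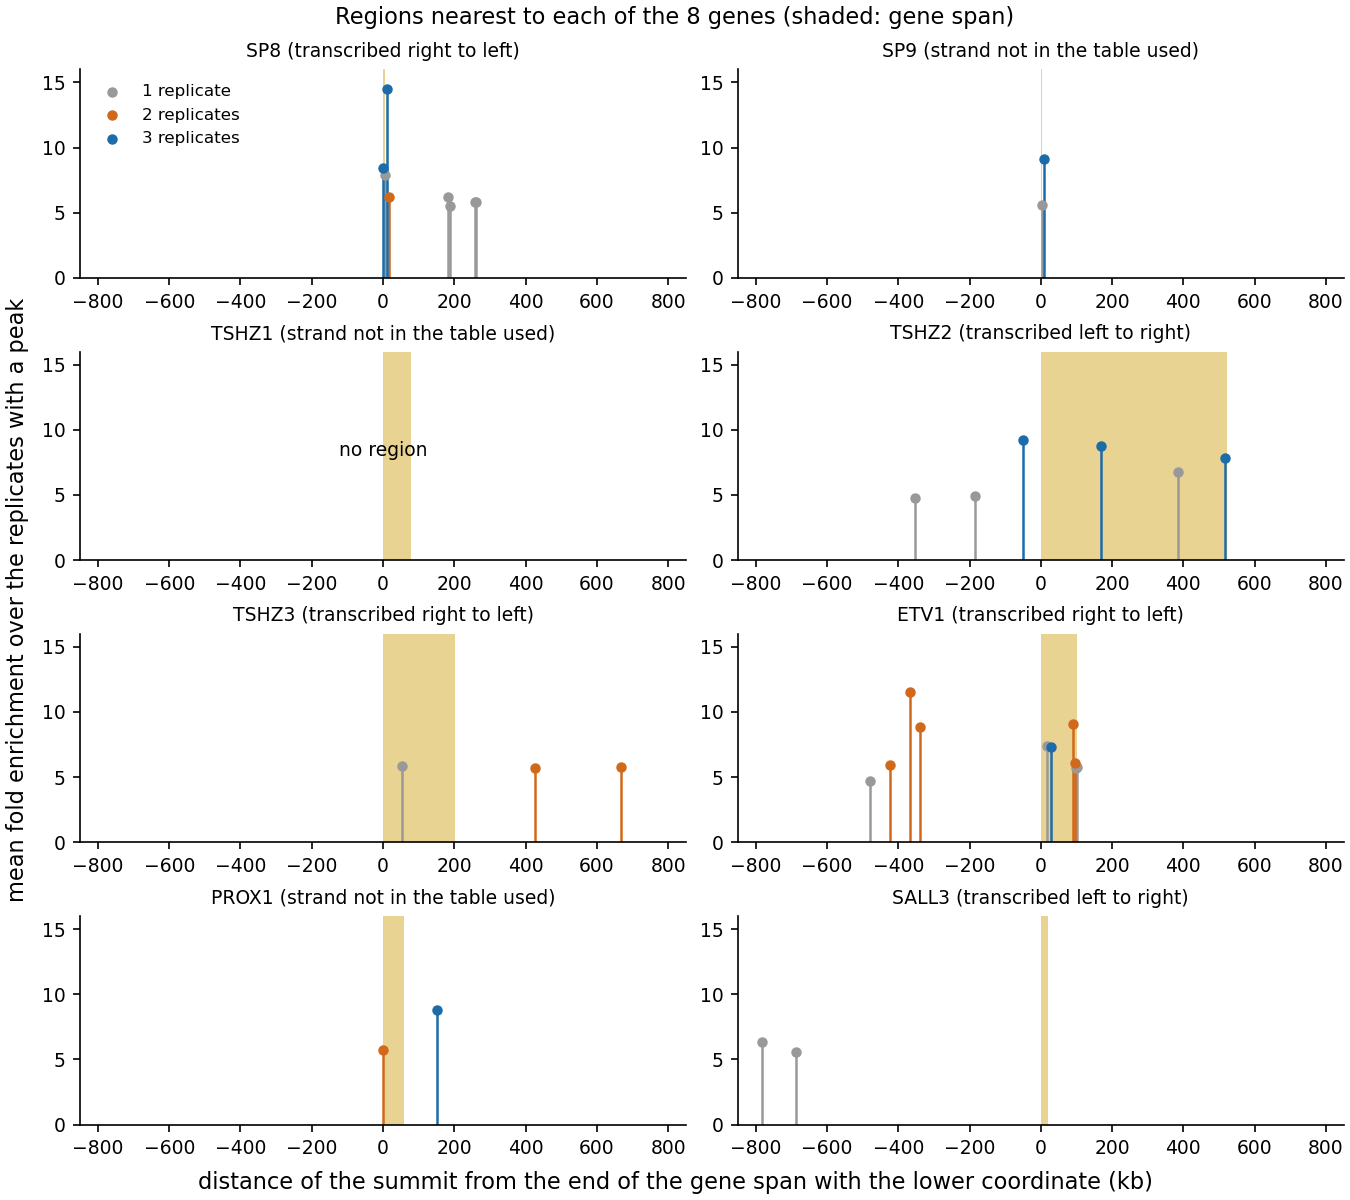
Position of every region relative to its gene, as the distance of the summit in kb from the end of the gene span with the lower coordinate (x axis), against mean fold enrichment over the replicates with a peak (y axis); colours give the number of replicates and shading the gene span. The recurrent regions lie inside or within 94.0 kb of their genes, and the regions outside SALL3 and TSHZ3, each of 1 or 2 replicates, are 225 to 781 kb away.

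ETV1 had the most regions of the 8 genes, 10, but 1 recurred in all 3 replicates, 5 were seen in 2, and 4 were seen once. The recurrent region lay inside the gene (chromosome 7, 13919916 to 13920631) and measured 5.35, 6.75 and 9.92 in replicates 1, 2 and 3, averaging 7.34 ± 2.34 (SD, n = 3). Its summits were spread over 361 bp, with that of replicate 1 apart from the other 2, and it was no longer recurrent when summits had to lie within 200 bp of each other. Of the 3 regions of 2 replicates within the distal group, the strongest was 366 kb beyond the transcribed end (13525226 to 13525526). It measured 11.6 in replicate 1 and 11.5 in replicate 3, above 87.0% and 85.5% of their peaks, with −log10 q of 20.4 and 18.5, and summits 7 bp apart. Replicate 2 had no peak there. Of all 3568 regions of 2 replicates, 3.39% were as strong. Without replicate 2 this region was the strongest of ETV1 and raised its value from 7.34 to 11.5.

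The ETV1 regions fell into 2 groups. The distal group of 4 regions, 340 to 480 kb beyond the transcribed end, lay within the long noncoding gene LOC107986770. It included a region of 8.72 and 8.99-fold in replicates 2 and 3 at 340 kb. The other group of 6 lay inside the gene or within 2 kb of it. Of these, 4 stood within 11 kb of the outer end where the listed starts are. The strongest of the 4, 10.8 kb inside that end, measured 8.31 in replicate 2 and 9.85 in replicate 3. The region over the inner listed start, printed above, measured 7.66 in replicate 1 and 4.53 in replicate 3. Replicate 1 had 7 of the ETV1 peaks, replicate 2 had 4 and replicate 3 had 6.

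PROX1 had 1 recurrent region, on chromosome 1 from 214135356 to 214135653, 94.0 kb above the gene. It measured 9.37, 10.2 and 6.88 in replicates 1, 2 and 3, averaging 8.81 ± 1.72 (SD, n = 3). A second region lay 0.958 kb outside the lower end of the gene, within the antisense gene PROX1-AS1, and measured 5.51 in replicate 2 and 5.93 in replicate 3. The 2 regions do not overlap in value, and replicate 1 had no peak at the weaker. SALL3 had 2 regions, at 781 kb in replicate 2 (6.34-fold) and at 686 kb in replicate 3 (5.55-fold), both before its listed start. At the average density its territory of 905 kb would hold 4.71 regions. The closest region of any kind was 107 kb from SALL3, nearest to ATP9B and in 1 replicate (11.0-fold), and the closest recurrent region was 1216 kb away, nearest to GALR1 (19.8 ± 1.0-fold, SD, n = 3).

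Ordered by their strongest recurrent region, the genes run SP8, TSHZ2, SP9, PROX1 and ETV1. The values of SP8 did not overlap those of TSHZ2, which ranged from 6.72 to 10.7. Each of the later neighbours overlapped the next, with ranges of 7.64 to 10.2 for SP9, 6.88 to 10.2 for PROX1 and 5.35 to 9.92 for ETV1, so the order after SP8 is not resolved. With 3 values against 3, a two-sided exact permutation test cannot go below 0.1, and none was run. Among the 8 recurrent regions replicate 2 gave the highest value at 5 and replicate 3 the lowest at 4, so no replicate was uniformly high or low. The median coefficient of variation between replicates was 18.1%, against 19.5% over all recurrent regions.

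**Figure D3:**
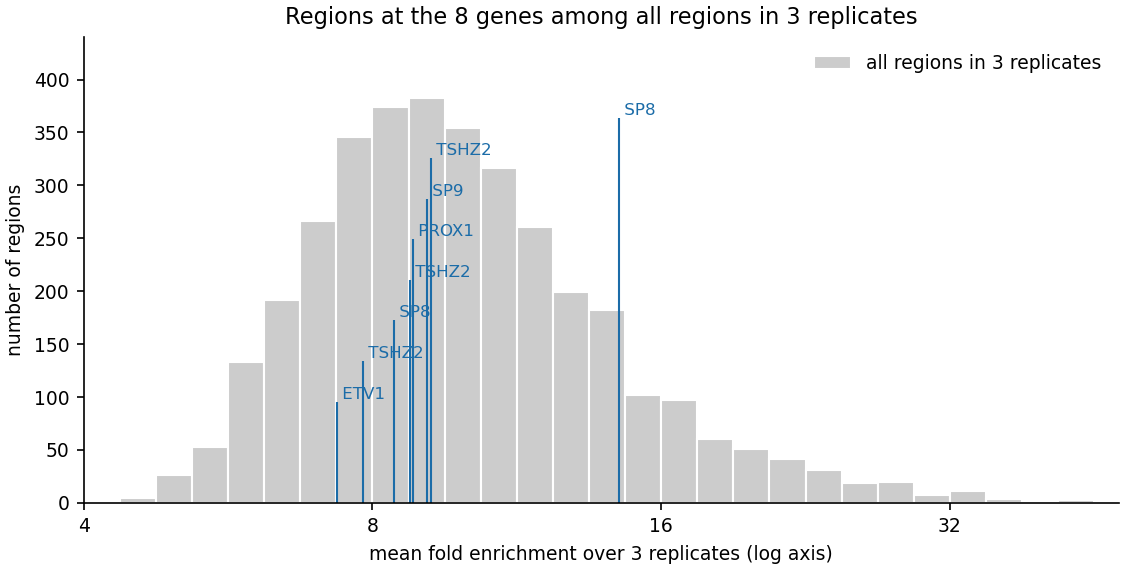
Number of regions (y axis) by mean fold enrichment over 3 replicates (x axis, log scale) for all 3537 recurrent regions in grey, with the 8 recurrent regions at these genes as blue lines labelled by gene. The SP8 region at 14.5 stands in the upper part, and the other 7 lie between 7.34 and 9.21, below the median of 9.49.

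No region over 100 kb from its gene had a peak in all 3 replicates. All 8 recurrent regions lay within 100 kb of the gene: 3 inside it, 3 within 10 kb of it and 2 farther out. Those 2 were 48.8 kb from TSHZ2 and 94.0 kb from PROX1, the latter just inside the limit. Over all recurrent regions, 51.3% were inside a protein-coding gene, 11.3% outside within 10 kb and 20.6% over 100 kb away. Of the 33 regions, 14 were over 100 kb from the gene (42.4%, against 20.8% of all regions) and 0 of these recurred in all 3 replicates. Some of the 14, at TSHZ3 and ETV1, were seen in 2 replicates, the strongest at ETV1 with 11.6 and 11.5-fold in replicates 1 and 3. Of the 19 nearer regions 8 recurred (42.1%). Over all regions the shares that recurred were 22.2% beyond and 22.5% within 100 kb, so all regions together showed no such split by distance. The 14 distant regions come from 5 genes, SP8, TSHZ2, TSHZ3, ETV1 and SALL3, and regions of 1 gene are not independent. Within 1 kb of either end of a protein-coding gene were 4 of the 33 regions (12.1%, against 9.20% of all regions). Regions inside the gene made up 30.3% of the 33, against 50.9% of all regions; gene spans made up 22.9% of the territory of the 8 genes and 41.7% over all genes.

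Per length of territory, regions were denser than the average over all genes at SP8, SP9 and ETV1, and slightly denser at PROX1 and TSHZ2. Over all genes there were 5.20 regions and 1.17 recurrent regions per Mb, and over the 8 territories 7.65 and 1.85. SP8 had 23.7 regions per Mb, SP9 38.8 (from 2 regions) and ETV1 12.9. PROX1 had 8.39 from 2 regions and TSHZ2 6.32. At the average density SP8 would hold 1.76 regions (8 found), SP9 0.268 (2 found) and ETV1 4.04 (10 found). PROX1 would hold 1.24 (2 found), TSHZ2 4.94 (6 found) and TSHZ3 4.77 (3 found), so counts at these last genes were closer to the average. TSHZ3 (3.27), SALL3 (2.21) and TSHZ1 (0) were below average. Counting recurrent regions only, ETV1 with 1.29 per Mb was near the average of 1.17, while SP9 had 19.4, SP8 5.92, PROX1 4.19 and TSHZ2 3.16, on 1 to 3 regions each. The value of SP9 rests on 1 region that is almost as near to CIRSR. Counted instead within 500 kb of each gene, whichever gene was nearest, TSHZ2 had 21 regions of which 7 recurred, SP8 had 14 with 3, and ETV1 13 with 2. SP9 and PROX1 had 9 with 2 each, TSHZ3 6 with 1, TSHZ1 5 with 0 and SALL3 1 with 0. These windows reach 500 kb to either side of the gene span, so they are longer at longer genes, most of all at TSHZ2 (523 kb). The counts were not scaled to window length or set against an average over all genes.

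**Figure D4:**
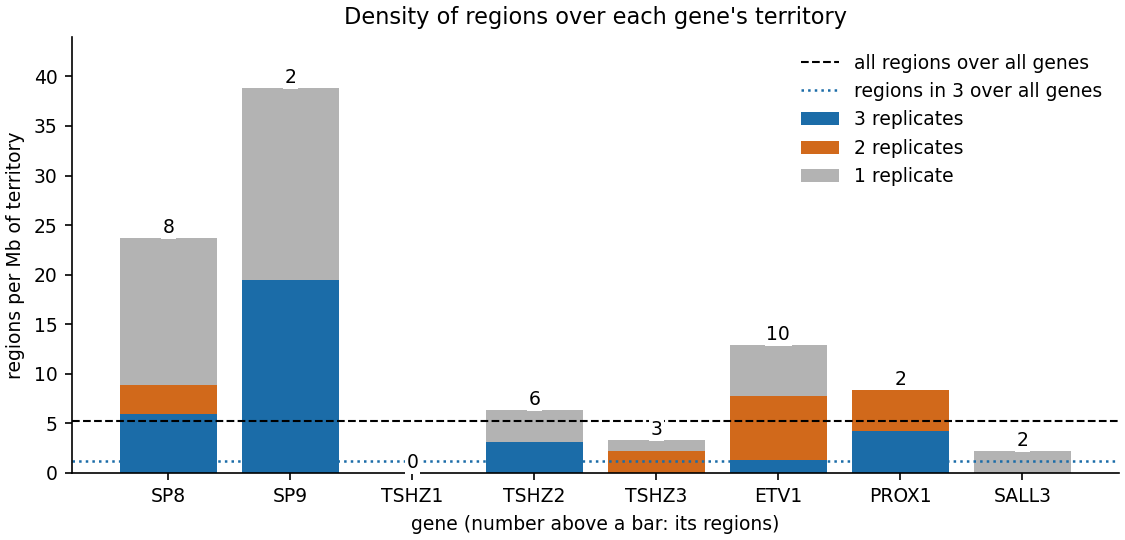
Regions per Mb of territory (y axis, from 0) for each gene, stacked by the number of replicates with a peak, with the number of regions above each bar; the lines mark 5.20 regions and 1.17 recurrent regions per Mb over all genes. The bars of SP8, SP9, ETV1, PROX1 and TSHZ2 rise above the dashed line, those of SP9 and PROX1 on 2 regions each, and TSHZ1 has none.

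The family relatives of these genes had recurrent regions at 6 of 13, against 12.5% of all protein-coding genes, on territories with a median of 59.0 kb: SP1, SP4, ETV5, SALL1, SALL2 and SALL4. ETV5, an ETS factor of the same subgroup as ETV1, held the strongest, inside the gene, at 28.6, 16.9 and 22.1 in replicates 1, 2 and 3, so its lowest value was above the 9.92 that ETV1 reached at its recurrent region. SALL4 had a region 108 kb away of 12.3 ± 2.2-fold and SP1 a region inside the gene of 10.1 ± 1.3-fold (SD, n = 3). SALL1 and SALL2 had weaker regions inside the gene (5.54 ± 0.82 and 6.34 ± 1.17-fold, SD, n = 3), while SALL3 had none that recurred. ETV4, PROX2, SP5, SP6 and SP7 were nearest to no region.

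Among other transcription factors of the dorsal LGE, CGE and olfactory lineages, 11 of 20 had a recurrent region, against 12.5% of all protein-coding genes, on territories with a median of 295 kb against 56.4 kb. The strongest were 337 kb from NR2F1 and 483 kb from NR2F2, nuclear receptor genes of the CGE (27.9 ± 6.8 and 21.4 ± 4.0-fold), inside PAX6, which encodes a homeodomain factor of the dorsal boundary and of olfactory dopaminergic neurons (18.8 ± 6.1-fold), and 1.33 kb from the zinc finger factor gene ZIC2 (17.2 ± 2.2-fold; SD, n = 3 each). The lowest single value at these 4 regions, 13.7 at PAX6 in replicate 1, was above the highest values of SP9, TSHZ2, PROX1 and ETV1 at their strongest recurrent regions. These are maxima over unlike numbers of recurrent regions. NR2F1 had 5 on a territory of 1123 kb, NR2F2 8 on 1745 kb, PAX6 3 on 165 kb and ZIC2 2 on 61.1 kb. SP9, PROX1 and ETV1 had 1 each and TSHZ2 had 3. The 18 effector and marker genes had territories with a median of 137 kb against 56.4 kb, with 1742 kb at ERBB4 and 2277 kb at ROBO2. Of these genes, 6 had a recurrent region and 12 had none, against 12.5% of all protein-coding genes with such a region. The strongest were inside ERBB4, the neuregulin receptor gene, and inside ADARB2, a marker of CGE interneurons (21.0 ± 5.1 and 15.5 ± 2.2-fold), followed by regions inside the guidance receptor gene ROBO2 (9.79 ± 2.59-fold) and 2.57 kb from the serotonin receptor gene HTR3A (9.55 ± 1.23-fold; SD, n = 3 each). The interneuron markers CALB1, CALB2, SCGN, TH and VIP, the GABA-synthesising enzyme gene GAD1 and the prokineticin receptor gene PROKR2 were nearest to no region, and CCK, DCX, LAMP5, RELN and SLC32A1 to none that recurred.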

How the data were processed

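According to the processing notes of the submitters, MACS3, Bowtie2, SAMtools, deepTools and Trim Galore were among the tools and hg38 was the build; the sources used here do not give versions, settings or any use of the input as control. Peaks were called in each replicate by itself, as the authors deposited a separate list for each. A deposited peak carries its fold enrichment (a linear ratio to local background), the −log10 of its p-value and the −log10 of its q-value. The score that the authors deposited beside them repeats the q-value and was left aside. No peak had a −log10 q below 3.0, which corresponds to a q-value of 0.001. The lists give no depth.

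Lines of 1 interval were reduced to the summit of highest fold enrichment, leaving 9859, 7471 and 9122 intervals on chromosomes 1 to 22 and X. Genes came from RefSeq (GRCh38.p14), with all 59 listed genes matched by symbol; a tie of nearest genes counted for each, and 0 of the 33 regions were tied. Intervals merged over replicates kept the best peak per replicate, and the median summit gave the distance. Territories ended at the midpoints between neighbouring coding spans. Promoter sequences are RefSeq's. In simulated lists, 400 of 400 planted sites were recovered with the right gene. These sites lay in the middle of genes with no other coding gene close by, so assignment between genes was not checked. No test was run, because there is 1 group. Wilson intervals cover counting error over regions only. Python 3.11.15 and pandas 2.3.3 were used.

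The genes and lists were chosen with earlier results of these data known. Named by rule were the 8 genes, the relatives with a recurrent region, the neighbouring genes, and the 4 genes of each other list with the strongest region. The relatives without any region, the other effector and marker genes, the noncoding genes at summits and the genes nearest to the closest other regions were named after their values were seen. Alternatives covered the distance measure, the overlap, the peak threshold, a distance limit, the replicates needed and leaving out each replicate.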

Additional observations from a re-analysis of the deposited data

How the results depend on the processing

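The number of regions at the 8 genes, 33, fell to 16 with the nearest gene of any type, to 12 at a −log10 q of at least 10 and to 19 within 100 kb, and rose to 78 for all regions within 500 kb whichever gene is nearest, an alternative chosen after seeing the data. The 8 recurrent regions became 2 at a −log10 q of at least 10, 17 with regions of at least 2 replicates and 17 within 500 kb; leaving out 1 replicate, so that 2 had to agree, gave 9 to 12. The 5 genes with a recurrent region became 2 at a −log10 q of at least 10, SP8 and SP9, and were 4 to 6 under the other alternatives run, with TSHZ3 added without replicate 2 or 3. The median fold enrichment of 8.79 was 8.59 with the nearest gene of any type, 11.8 at a −log10 q of at least 10, 8.42 with regions of at least 2 replicates and 8.00 to 8.95 without 1 replicate; the spread it was held against, the SD of the 3 replicate medians, was 0.108. Leaving out a replicate changes both the regions admitted and the values averaged, which were not separated. The strongest region of ETV1 ranged from 6.05 to 11.5 without 1 replicate, while those of SP8, SP9, TSHZ2 and PROX1 moved by less than their SD wherever they remained. With summits within 200 bp ETV1 had no recurrent region, and at a −log10 q of at least 10 TSHZ2, ETV1 and PROX1 had none. PROX1 also had none with the nearest gene of any type, a setting under which the strongest regions were not compared. No paired analysis was possible because the input libraries, which share replicate numbers with the precipitated ones, have no values here. A missing peak can reflect depth, which is unknown.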
